A study of Mus musculus with 9 samples.

Results

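Oxidative phosphorylation (OXPHOS) is the process by which mitochondria use electrons from nutrients to make ATP. Complex I takes electrons from NADH and complex II takes them from succinate. Complex III passes them on through cytochrome c to complex IV, which hands them to oxygen, and ATP synthase, also called complex V, uses the resulting proton gradient to make ATP. Most subunits are encoded in the nucleus and imported, whereas a small set of central subunits is encoded by the mitochondrial genome. In macrophages the balance between this pathway and glycolysis is known to shift with the activation state of the cell.

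The genes described here are the protein-coding nuclear genes whose symbol names a structural subunit of complexes I to V (Nduf subunit genes without the Ndufaf assembly factors, Sdha to Sdhd, Uqcr genes, Cox4 to Cox8 genes and Atp5 genes) and that collected at least 10 counts over the 9 libraries. Of 53801 genes listed, 84 protein-coding genes fitted the symbol pattern and 80 passed the count minimum. The other 4 were Cox4i2, Cox7b2 and Cox8c, which had 0 counts in every library, and Ndufa4l2, which had 3 counts, all in 1 brain library. By name, 36 of the 80 genes belong to complex I, 4 to complex II, 8 to complex III, 15 to complex IV and 17 to ATP synthase. One of the 36, Ndufa4, is now known as a subunit of complex IV and was kept where its name puts it. The symbol rule missed some subunit genes, among them Cyc1 and Ndufab1, which are described with the related genes.

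The libraries were RNA-seq of monocytes and macrophages sorted as CD11c-Ly6G-CD11b+CD45high from male C57BL/6J mice aged 9 weeks. The left common carotid and the left distal middle cerebral artery were closed permanently to give a stroke (dMCAO). There were 3 libraries each from the blood of sham-operated mice (sham blood), the blood of mice 5 days after dMCAO (stroke blood) and the brain hemisphere on the lesion side 5 days after dMCAO (stroke brain). A blood library came from 1 mouse and a brain library from a pool of 5 mice, so that spread between brain libraries was spread between pools. The labels used here gave no day for the sham blood, and no sham brain was analysed here. Total counts ran from 18475118 to 22623578 per library.

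The gate was also checked against marker genes of the cells it could hold. The summed level of 10 monocyte and macrophage markers was 92397 to 129006 CPM (counts per 1000000 counts of the library, after scaling) in sham blood, 105514 to 112715 in stroke blood and 43634 to 50265 in stroke brain. Most of that sum was 1 gene, lysozyme Lyz2, with a mean of 97844 ± 3032 CPM in stroke blood and 38101 ± 2534 in brain (SD, n = 3), and of the 10 markers 4 were lower in brain than in stroke blood and 1, Cd68, was higher. The brain libraries also held microglial markers, at 1187, 1876 and 3492 CPM summed over 8 genes against 149 to 206 in stroke blood, where 2 of the 8 were at 0. Blood libraries held erythroid markers, at 946, 27406 and 25271 CPM in sham blood, 11926, 10978 and 15703 in stroke blood and 3.26 to 11.7 in brain. Neutrophil markers were at 13.8 to 301 CPM in stroke blood and 653 to 963 in brain, dendritic cell markers at 92.6 to 215 and 526 to 634, platelet markers at 320.2 to 395 and 33.7 to 78.1 and genes of cycling cells at 5.21 to 10.9 and 64 to 124. Neuronal markers summed to at most 2.53 CPM in any library and astrocyte markers to at most 6.68. Endothelial and choroid plexus markers were at 39.2 to 59.2 CPM in stroke blood and 54.6 to 140 in brain. Oligodendrocyte markers were at 319 to 469 and 250 to 284, but 2 of the 5 genes were at 0 in stroke blood, so that sum came from the remaining ones. T and NK cell markers were at 120 to 376 and 292 to 556. B cell markers were at 65.3 to 114 and 43.8 to 85.6. In sham blood neutrophil markers were at 170 to 498 CPM, dendritic cell markers at 74 to 334 and platelet markers at 17.6 to 634. Across all genes tested, 57.2% of those called between stroke brain and stroke blood were higher in brain, and this share ran from 43.4% to 69.2% over the other scalings and offsets tried.

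The promoters of the OXPHOS genes are shown first as sequence context. NRF1, GABPA and YY1 are transcription factors long associated with nuclear respiratory genes. In the RefSeq table of promoter windows (GRCm38.p6, 250 bases before to 50 after the start, 300 bases in all), 67 of the 80 genes were found. The NRF1 core CGCANGCG, searched on both strands, was present in 23 of the 67 windows (34.3%) and in 8.33% of 27025 windows, 1 a gene. The window of a member was the one whose start lay nearest the annotated gene end. For the 27025 it was the first of each gene by coordinate, over all genes of the RefSeq table, expressed or not. The shares thus come from windows chosen by unlike rules. The GABPA core CCGGAAG was present in 15 (22.4%) against 9.08%, and the YY1 motif AAGATGGCG in 6 (8.96%) against 1.49%. The ERRA site AAGGTCA was in 11.9% against 4.66%, the hypoxia response core ACGTG in 26.9% against 19.5%, and the TATA box TATAAA in 8.96% against 14.1%. These are letter matches, no binding was measured, and none of the 6 motifs is contained in another.

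The 120 bases before the start are shown for 3 genes with lower levels in brain, Atp5e, Ndufs6 and Uqcrh, and for 2 with no call, Sdha and Ndufa12. They are the genes with a fold change over 2 and the genes without a call highest in brain, respectively, whose start lay within 100 bases of the annotated gene end and which had an NRF1, GABPA or YY1 match in that stretch. Each reads 5′ to 3′ on the gene's own strand, and capitals mark an NRF1 match in Ndufs6, Sdha and Ndufa12 and a GABPA match in Atp5e and Uqcrh. The stretches lie at chr2:174464102-174464221, minus strand, for Atp5e, chr13:73328483-73328602, minus strand, for Ndufs6, chr4:116075071-116075190, minus strand, for Uqcrh, chr13:74350241-74350360, minus strand, for Sdha, and chr10:94198915-94199034, plus strand, for Ndufa12.
Atp5e: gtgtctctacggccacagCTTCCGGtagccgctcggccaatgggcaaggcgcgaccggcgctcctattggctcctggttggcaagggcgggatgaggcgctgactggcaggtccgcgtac
Ndufs6: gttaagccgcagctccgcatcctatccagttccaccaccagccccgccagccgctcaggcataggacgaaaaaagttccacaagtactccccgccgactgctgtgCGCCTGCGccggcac
Uqcrh: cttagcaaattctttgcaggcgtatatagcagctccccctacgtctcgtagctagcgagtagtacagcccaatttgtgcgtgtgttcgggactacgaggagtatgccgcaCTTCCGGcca
Sdha: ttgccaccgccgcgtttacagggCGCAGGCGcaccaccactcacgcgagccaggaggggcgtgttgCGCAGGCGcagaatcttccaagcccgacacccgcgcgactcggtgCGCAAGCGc
Ndufa12: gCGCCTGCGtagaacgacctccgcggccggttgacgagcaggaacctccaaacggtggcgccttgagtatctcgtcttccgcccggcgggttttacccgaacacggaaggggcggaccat
The Sdha stretch holds 3 NRF1 matches and the other 4 hold 1 match each. Among the 44 matched genes that were lower in brain than in stroke blood, 14 (31.8%) held the NRF1 core and 11 (25%) the GABPA core. Among the 22 that were tested and not lower, 9 (40.9%) held the NRF1 core and 4 (18.2%) the GABPA core.

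The first comparison asked how cells sorted from the ischemic brain differed from cells sorted from the blood of mice with stroke. In stroke brain the transcripts of most nuclear OXPHOS genes were at lower levels than in stroke blood, across complexes I, III, IV and V. Of 79 genes with enough counts to be tested, 50 were lower and 1, Cox6a2, was higher (edgeR's quasi-likelihood test, Benjamini-Hochberg adjusted p below 0.05). Cox6a2 had enough counts through the brain libraries only. Over all 13189 genes tested, 13.1% were lower and 17.5% were higher. The median log2 fold change was -0.65 over the 79 genes and 0.06 over all genes tested, and 73 of the 79 were below 0. In bulk libraries, fewer cells of a type and less RNA per cell cannot be told apart. The levels did not overlap between the groups, with every brain library below every stroke blood library, for 60 of the 79 genes, against 23.2% of all genes tested.

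**Figure D1:**
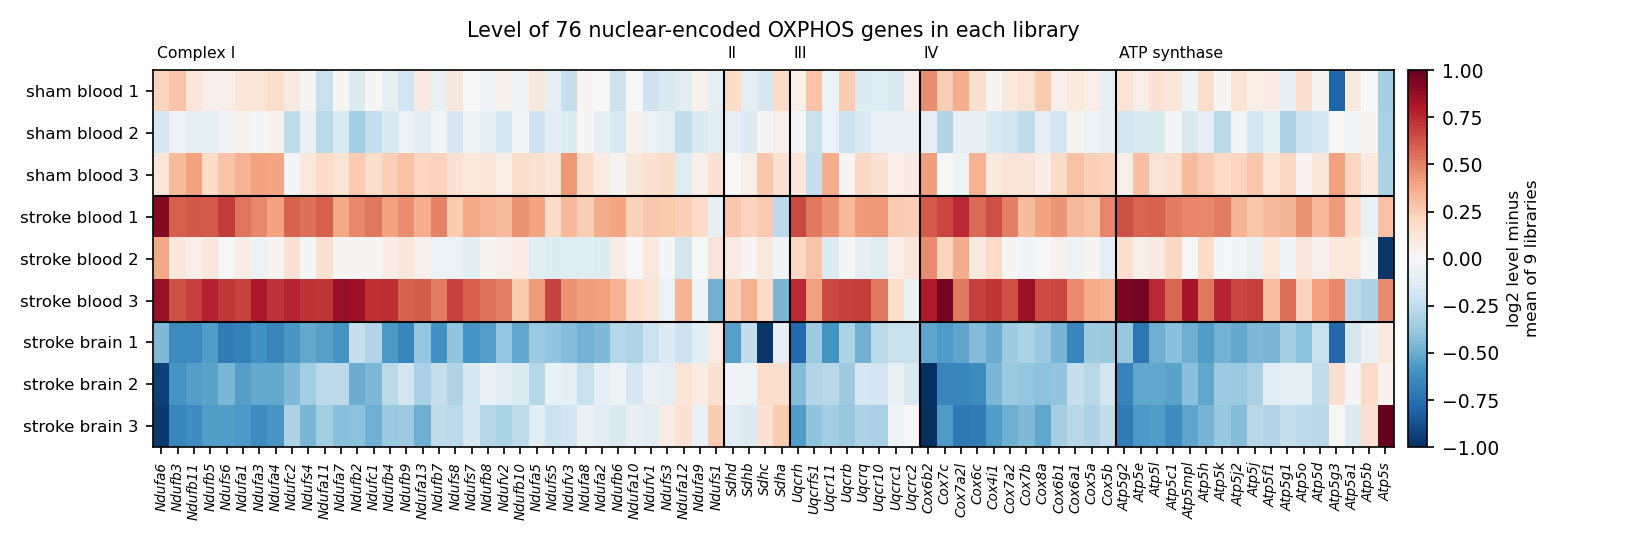
Level of 76 nuclear-encoded OXPHOS genes (columns, grouped by complex and ordered by fold change within it) in each of 9 libraries (rows), as log2 CPM minus the gene's mean over the libraries, with colours ending at -1 and 1. Most genes are blue in the 3 brain libraries and red in stroke blood 1 and 3, while stroke blood 2 lies closer to sham blood.

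The differences were mostly below 2-fold. Differentially expressed genes (DEGs), which needed both an adjusted p below 0.05 and a fold change over 2, numbered 14 lower and 1 higher among the 79, against 7.86% lower and 13.1% higher of all genes tested. They were Ndufa1, Ndufa6, Ndufb3, Ndufb5, Ndufb11 and Ndufs6 of complex I, Uqcrh of complex III, Cox4i1, Cox6b2, Cox6c, Cox7a2l and Cox7c of complex IV and Atp5e and Atp5g2 of ATP synthase, with Cox6a2 as the gene that was higher. Leaving out 1 library at a time gave 28 to 59 lower genes, the fewest without stroke brain 3, with 33 without stroke blood 1, 34 without stroke blood 3 or stroke brain 2 and 59 without stroke blood 2. Of all genes tested, 8.15% were lower without stroke brain 3, 7.74% without stroke blood 1 and 8.61% without stroke blood 3. The share was 7.8% without stroke brain 2, 11.8% without stroke blood 2 and 13.4% without stroke brain 1. The same 28 genes were lower in each of these 6 fits, and 15 were lower in these and in the 11 other fits run at this threshold. How many of all genes tested stayed lower in the same fits was not counted, so no share stands beside the 28 and the 15. DEGs numbered 8 without stroke blood 3 and 28 without stroke blood 2. The DEGs among all genes were not counted in these fits, so the change in number may not be particular to the members.

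Most OXPHOS subunits are short proteins, and the fold change moved with coding length in all genes of these libraries. Among members with a coding length up to 300 nucleotides, 17 of 21 were lower (81.0%), compared with 41.4% of 210 other protein-coding genes of that length. From 300 to 600 nucleotides 27 of 38 members were lower (71.1%) against 26.4% of 1261 others, and from 600 to 1200 nucleotides 6 of 11 (54.5%) against 13.1% of 3362 others. None of the 9 members above 1200 nucleotides was lower, compared with 7.14% of 6499 others. In the same 4 classes the median log2 fold change of members was -0.78, -0.69, -0.49 and -0.20, and that of the others was -0.48, -0.28, 0.064 and 0.24. Across genes, which are not independent and share the same 6 libraries, Spearman's rho between coding length and log2 fold change was 0.53 over 79 members and 0.19 over 11411 protein-coding genes. With an offset for GC content and exon length 43 members were lower, 36 of them among the 50, and with an offset for GC content and coding length, added after the data were seen, 37 were lower, 29 of them among the 50. Under the first of these offsets 16.1% of all genes were lower. Under the second 17.9% of all genes were lower and the median log2 fold change was -0.41 over members and -0.13 over all genes. The part of coding length in the lower levels was not tested further.

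**Figure D2:**
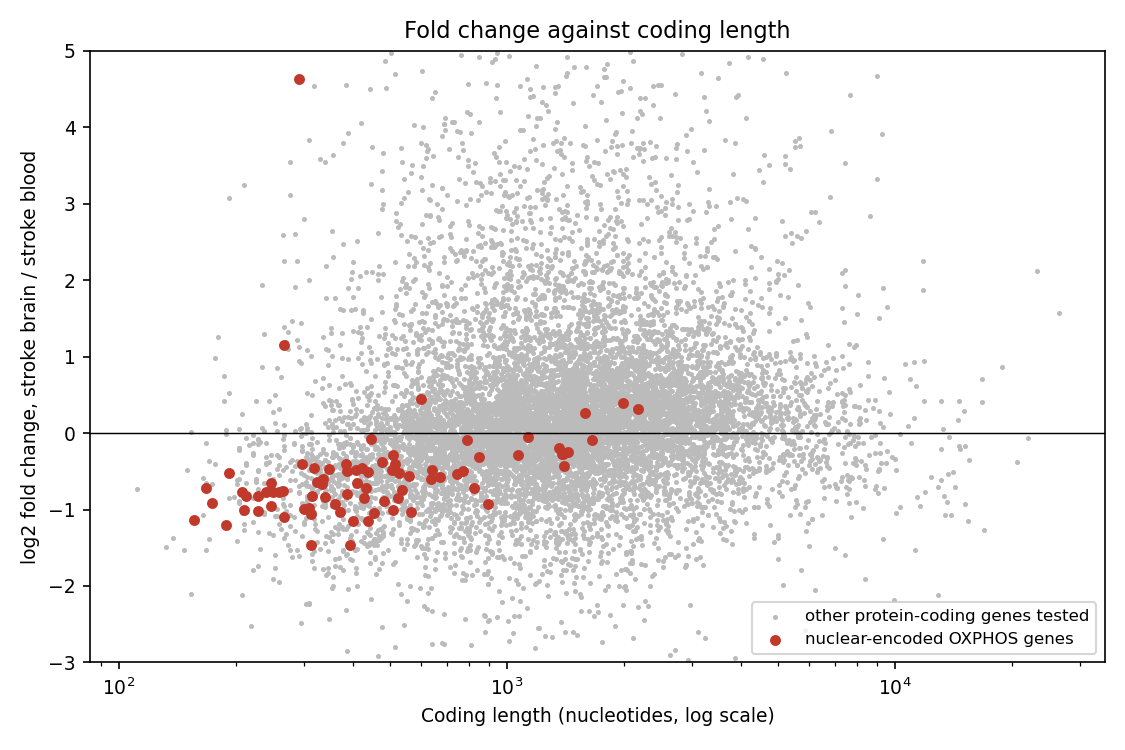
Log2 fold change between stroke brain and stroke blood (vertical) against coding length on a log scale (horizontal), with 79 OXPHOS genes in red over the other protein-coding genes tested in grey, 321 of which lie outside the axis limits of -3 and 5. Nearly all red points lie below 0 and to the left, and the longest members lie close to 0.

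Complex I holds a set of core subunits that carry the flavin and the iron-sulfur clusters, surrounded by accessory subunits. Of its 36 genes 22 were lower in brain than in stroke blood, with a median log2 fold change of -0.63.

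Ndufa6 (ENSMUSG00000022450, chr15:82350140-82354322, minus strand), an accessory subunit of the matrix arm, was at 112, 79.7 and 78.3 CPM in the 3 brain libraries, 286, 199.6 and 279 in stroke blood and 178, 135 and 166 in sham blood. All brain libraries were below all blood libraries, and stroke blood was above sham blood without overlap. The difference between brain and stroke blood was the largest of complex I, with a log2 fold change of -1.46 ± 0.20 (SE), adjusted p = 0.000915. Ndufb3 (ENSMUSG00000026032, chr1:58586384-58595964, plus strand), an accessory subunit of the membrane arm, was at 71.4, 73.4 and 70.6 CPM in brain and 168, 120.1 and 172 in stroke blood. Brain values were close together and below the lowest blood value, with a log2 fold change of -1.06 ± 0.17 (SE), adjusted p = 0.00178, and the call was lost with the offset for GC content and exon length (log2 fold change -0.39, adjusted p = 0.0505).

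Ndufb5 and Ndufb11 also encode accessory subunits of the membrane arm, and the exons of both overlap a gene on the opposite strand. Ndufb5 (ENSMUSG00000027673, chr3:32736990-32751566, plus strand) was at 59.2, 60.1 and 58.9 CPM in brain and 133, 94 and 148 in stroke blood, giving a log2 fold change of -1.04 ± 0.18 (SE), adjusted p = 0.00293. Its partner Mrpl47 was at 5.11, 8.34 and 8.8 CPM in brain and 11, 5.64 and 9.69 in stroke blood. Ndufb11 (ENSMUSG00000031059, chrX:20615326-20617619, minus strand) was at 77.1, 82.1 and 78.3 CPM in brain and 185, 126 and 193 in stroke blood, giving a log2 fold change of -1.05 ± 0.18 (SE), adjusted p = 0.00255. For both genes every brain library was below every stroke blood library. The strand setting of the counting was not given in the sources used here, so reads from overlapping exons may be assigned to neither gene or to the partner.

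Ndufs6, a zinc-binding accessory subunit (ENSMUSG00000021606, chr13:73319838-73328542, minus strand), was at 69.1, 81.9 and 76.1 CPM in brain and 182, 113 and 183 in stroke blood, with a log2 fold change of -1.04 ± 0.20 (SE), adjusted p = 0.00445. Stroke blood 2 stood well below the other 2 stroke blood libraries and still above all brain libraries. Ndufs6 overlaps Mrpl36 on the opposite strand, which fell in parallel (a log2 fold change of -0.91 ± 0.16 (SE), adjusted p = 0.00279). Ndufa1 (ENSMUSG00000016427, chrX:37187588-37191163, minus strand), a small membrane subunit, was at 131, 143 and 141 CPM in brain and 304, 221 and 335 in stroke blood, with a log2 fold change of -1.01 ± 0.17 (SE), adjusted p = 0.0024. Its groups did not overlap, but its direction turned with the offset for GC content and exon length (log2 fold change 0.11, adjusted p = 0.581), while the offset with coding length kept the call.

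At the other end of complex I, Ndufs1 (ENSMUSG00000025968, chr1:63143596-63176833, minus strand), the longest core subunit, was at 58.2, 61.2 and 65.4 CPM in brain and 51.8, 60.1 and 39.4 in stroke blood. The groups overlapped and the difference did not pass the test (a log2 fold change of 0.32 ± 0.20 (SE), adjusted p = 0.252). Its exons overlap Eef1b2 on the opposite strand, at 168, 124 and 123 CPM in brain and 352, 203 and 341 in stroke blood. Eef1b2 was lower in brain (a log2 fold change of -1.07 ± 0.23 (SE), adjusted p = 0.0074). Ndufa9, an accessory subunit near the quinone site, was at 95.8, 108 and 98.5 CPM in brain and 117, 103 and 101 in stroke blood, again with overlap between the groups (a log2 fold change of -0.051 ± 0.15 (SE), adjusted p = 0.821). Its value was above 0 when scaled by library size alone (0.10). Ndufa4 was at 126, 140.0 and 133 CPM in brain and 264, 203 and 330.1 in stroke blood without overlap (a log2 fold change of -0.96 ± 0.18 (SE), adjusted p = 0.00406), and its adjusted p was 0.0848 with the offset for GC content and coding length.

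**Figure D3:**
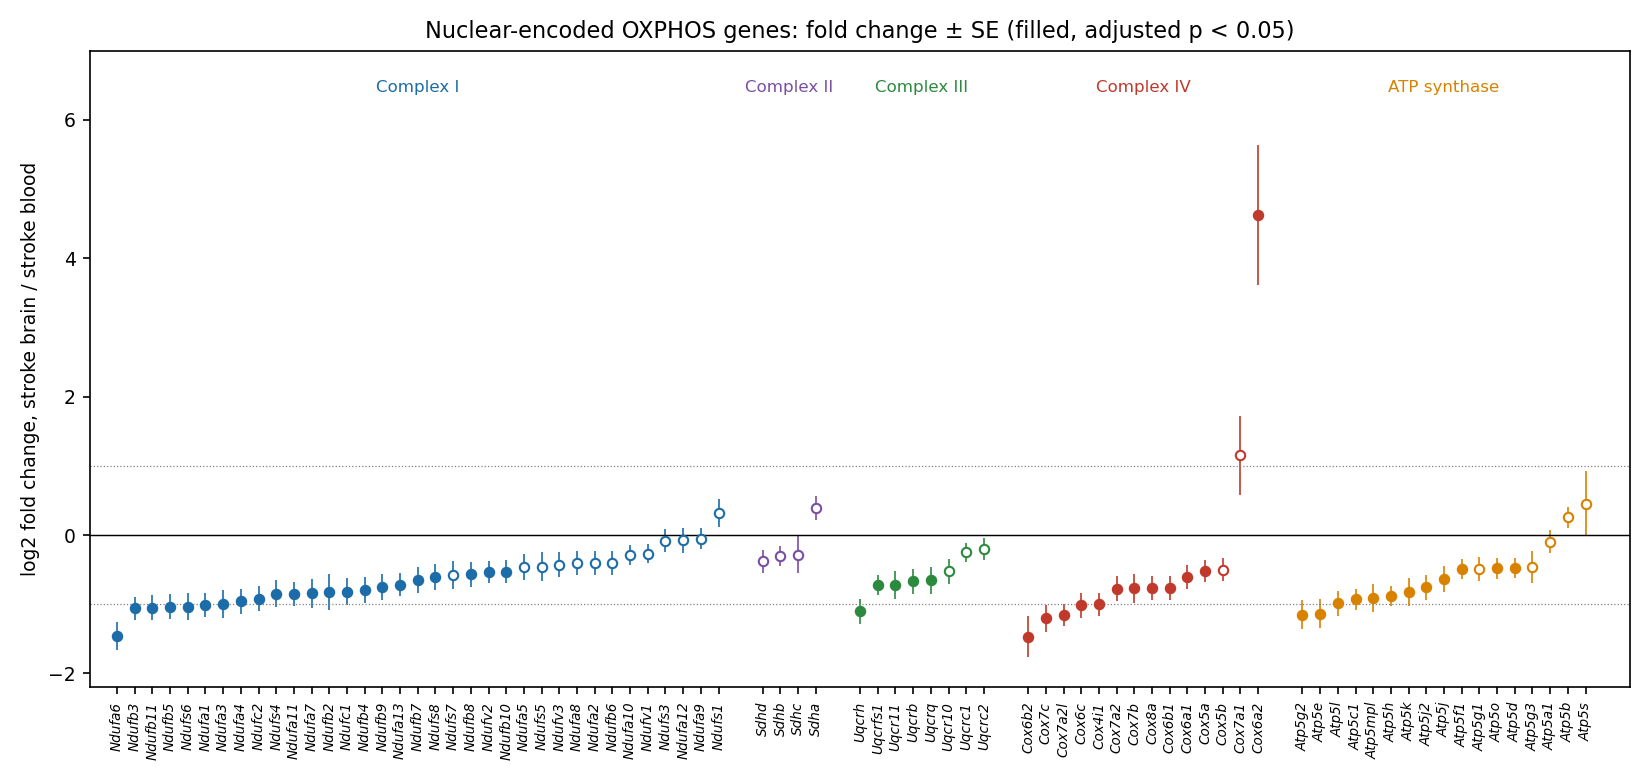
Log2 fold change between stroke brain and stroke blood with its SE for 78 genes grouped by complex, where filled points passed an adjusted p of 0.05 and dotted lines mark a 2-fold difference. Filled points lie below 0 in complexes I, III, IV and V except Cox6a2 at 4.63, and all 4 points of complex II are open.

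Complex II, succinate dehydrogenase, also works in the tricarboxylic acid cycle and is the one complex encoded in the nucleus alone. None of its 4 genes passed the test. Sdha (ENSMUSG00000021577, chr13:74322254-74350280, minus strand), the flavoprotein, was at 288, 344 and 369 CPM in brain, 256, 301 and 223 in stroke blood and 349.5, 319.9 and 341 in sham blood. Its brain and stroke blood values overlapped (a log2 fold change of 0.39 ± 0.17 (SE), adjusted p = 0.119), and scaling by library size alone took it past the threshold as higher in brain (log2 fold change 0.54, adjusted p = 0.0444). The iron-sulfur subunit Sdhb was at 282, 323 and 306 CPM in brain and 389.7, 338 and 427 in stroke blood, a gap without overlap that did not pass the test (a log2 fold change of -0.31 ± 0.14 (SE), adjusted p = 0.135). Sdhb was called lower with upper-quartile scaling (log2 fold change -0.46, adjusted p = 0.0409) and with the offsets for GC content and exon length (-0.40, adjusted p = 0.0444) or coding length (-0.50, adjusted p = 0.0175). Of the membrane anchors, Sdhc was at 41.1, 91.1 and 89 CPM in brain and 96.4, 86.7 and 92 in stroke blood (a log2 fold change of -0.28 ± 0.27 (SE), adjusted p = 0.461), with brain 1 alone below the blood range. Without brain 1 the log2 fold change of Sdhc was 0.0090. Sdhd was at 168, 240.1 and 227 CPM in brain and 295, 259 and 289 in stroke blood (a log2 fold change of -0.38 ± 0.17 (SE), adjusted p = 0.115). Its groups did not overlap, and upper-quartile scaling gave it a call as lower (log2 fold change -0.53, adjusted p = 0.0405).

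Complex III had 5 lower genes of 8 and a median log2 fold change of -0.66. Uqcrh (ENSMUSG00000063882, chr4:116066965-116075071, minus strand), the hinge protein that lies at the cytochrome c1 subunit, was at 102, 129.6 and 119 CPM in brain, 276, 203 and 295 in stroke blood and 183, 174 and 189.5 in sham blood. The 3 groups were fully separated, and brain was below stroke blood with a log2 fold change of -1.10 ± 0.18 (SE), adjusted p = 0.00177. Uqcrfs1 (ENSMUSG00000038462, chr13:30540308-30545362, minus strand), the Rieske iron-sulfur protein, was at 143, 149.5 and 138 CPM in brain and 264, 223 and 242 in stroke blood, with a log2 fold change of -0.72 ± 0.14 (SE), adjusted p = 0.00452. This redox subunit was lower in every fit run at this threshold. The long subunits Uqcrc1 and Uqcrc2, which form the matrix base of the complex, did not pass the test. Uqcrc1 was at 494, 549 and 556 CPM in brain and 689, 602 and 651 in stroke blood (a log2 fold change of -0.25 ± 0.14 (SE), adjusted p = 0.203), without overlap, and was called lower with the offset for exon length (log2 fold change -0.51, adjusted p = 0.0196) and with that for coding length (-0.52, adjusted p = 0.0166). Uqcrc2 was at 84.7, 89.2 and 99.1 and 117, 108 and 94.7 CPM (a log2 fold change of -0.20 ± 0.16 (SE), adjusted p = 0.372), with overlap, and was called lower with the offset for coding length (log2 fold change -0.50, adjusted p = 0.0203).

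Complex IV, cytochrome c oxidase, has its catalytic subunits in the mitochondrial genome, so that its nuclear genes all encode surrounding subunits, several with tissue-specific isoforms. Of the 15 genes 14 were tested, 11 were lower and 1 was higher, with a median log2 fold change of -0.77. Cox4i1 (ENSMUSG00000031818, chr8:120668222-120674207, plus strand), the widely expressed form of subunit IV, was at 388, 399 and 372 CPM in brain, 857, 626 and 900.4 in stroke blood and 556, 494 and 586 in sham blood. Brain libraries lay within a narrow range below all blood libraries, and the difference from stroke blood was -1.0 ± 0.16 on the log2 scale (SE, adjusted p = 0.002). Its exons overlap Emc8 on the opposite strand, which did not pass the test (a log2 fold change of -0.12 ± 0.19 (SE), adjusted p = 0.655).

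Cox7c (ENSMUSG00000017778, chr13:86044816-86046904, minus strand), a small membrane subunit, was at 62.5, 58.5 and 62.3 CPM in brain and 147, 108 and 179.5 in stroke blood. Brain was below blood without overlap (a log2 fold change of -1.20 ± 0.19 (SE), adjusted p = 0.00172), and 19.6% of its 75-base windows are shared with other genes. Reads from these windows may have been left uncounted or placed on those genes. Cox6c (ENSMUSG00000014313, chr15:35925886-35938246, minus strand), another small membrane subunit, was at 167, 146 and 139 CPM in brain and 334, 242 and 362 in stroke blood, with a log2 fold change of -1.02 ± 0.18 (SE), adjusted p = 0.00279. The gene overlapping it on the opposite strand, Vps13b, was lower as well (a log2 fold change of -0.77 ± 0.24 (SE), adjusted p = 0.0374). Cox7a2l (ENSMUSG00000024248, chr17:83501919-83514333, minus strand), a subunit 7a relative known from the assembly of respiratory supercomplexes, had the smallest adjusted p of the set. It was at 80.7, 74.1 and 70.7 CPM in brain and 196, 149.8 and 167 in stroke blood, without overlap, with a log2 fold change of -1.15 ± 0.16 (SE), adjusted p = 0.000857.

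**Figure D4:**
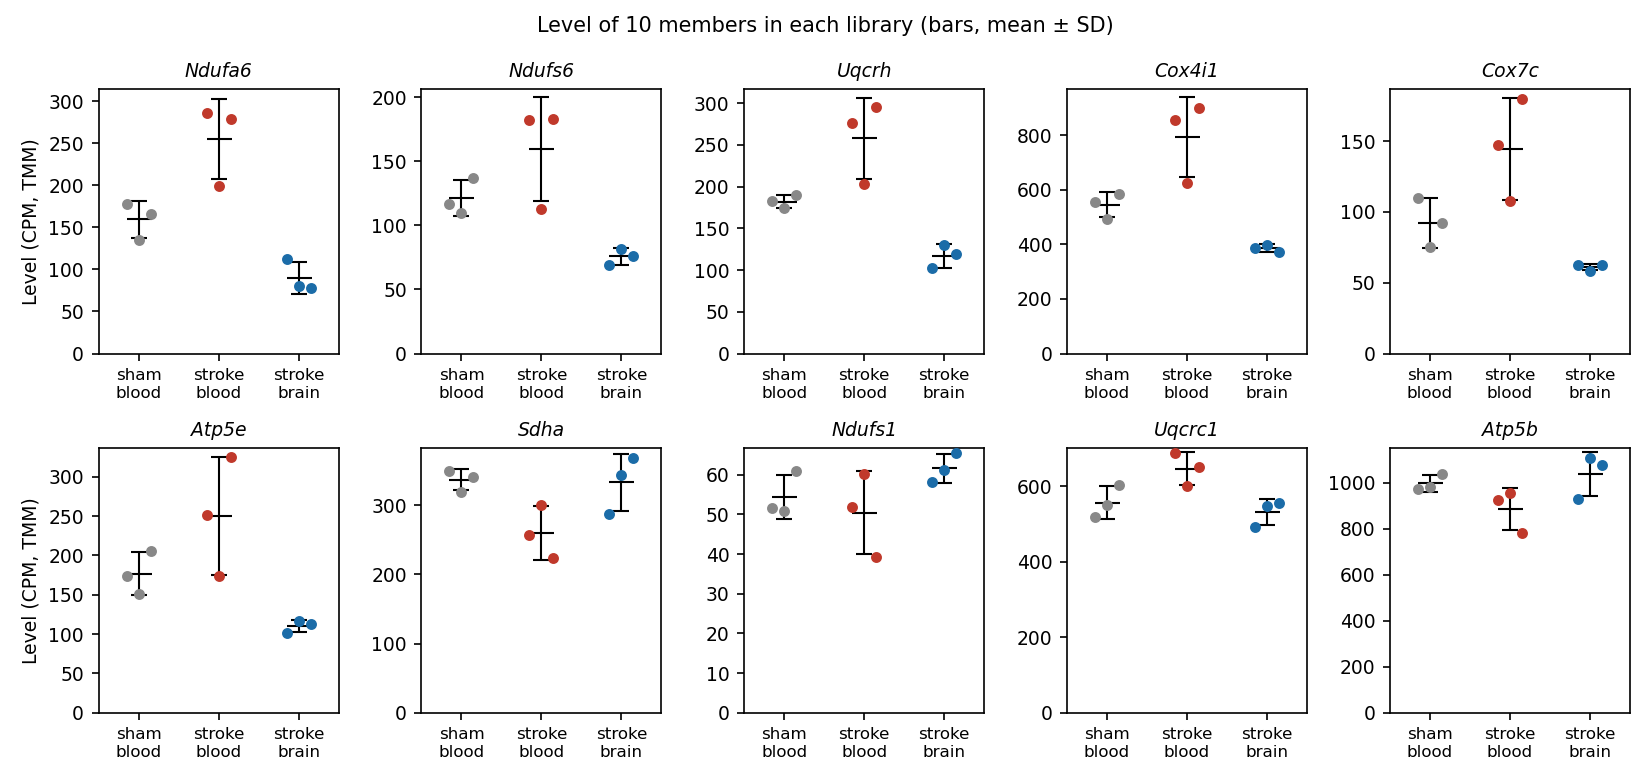
Level in CPM of 10 OXPHOS genes in each library, with the mean and SD of each group of 3. In the top row and for Atp5e all brain points lie below all stroke blood points, whereas brain and blood lie close together for Sdha, Ndufs1 and Atp5b.

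Several subunits of complex IV come as pairs of isoforms. Of the 6b pair, the widely expressed Cox6b1 was at 235, 246 and 257 CPM in brain and 439, 334 and 514 in stroke blood (a log2 fold change of -0.77 ± 0.17 (SE), adjusted p = 0.00874), without overlap, and lost its call with both offsets. Cox6b2 (ENSMUSG00000051811, chr7:4751792-4753094, minus strand), known as the testis isoform, was low at 5.16, 3.36 and 3.7 CPM in brain and 11.4, 10.3 and 13 in stroke blood. It had the lowest fold change of all members, with a log2 fold change of -1.47 ± 0.30 (SE), adjusted p = 0.00557, and its groups did not overlap. Of the 6a pair, Cox6a1 was at 227, 305 and 295 CPM in brain and 448, 346 and 495 in stroke blood (a log2 fold change of -0.60 ± 0.18 (SE), adjusted p = 0.0294). Its groups did not overlap, but 5 of the 6 fits without 1 library lost the call and the offset for GC content and exon length turned the direction (0.13).

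Cox6a2 (ENSMUSG00000030785, chr7:128205435-128206387, minus strand), the isoform known from heart and skeletal muscle, was the 1 member higher in brain. It had 60, 47 and 70 counts in the brain libraries, 6, 0 and 0 in stroke blood and 0, 0 and 3 in sham blood. Blood libraries were thus at or near 0 while all 3 brain libraries held reads, at 2.92, 1.95 and 3.05 CPM. The ratio of summed counts per total counts between brain and stroke blood was 28.5 (95% interval by the exact binomial method 12.8 to 78.7, which covers counting error only), and the test gave an adjusted p of 0.00818. Cox6a2 passed the count filter through its brain libraries only and was not tested between the blood groups. Its calls as higher are therefore no support beyond the counts themselves. All 6 stroke blood counts were in stroke blood 1, without which that group was at 0. Against sham blood the ratio was 56.5 (19.0 to 277.0). Cox6a2 overlaps Itgad on the opposite strand, which was at 0.633, 0.29 and 0.436 CPM in brain, and 8 markers of cardiac and skeletal muscle summed to at most 0.913 CPM in any library. Per kilobase of exon, Cox6a2 was at 3.88 CPM in brain and Cox6a1 at 393.

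Cox7b, whose relative Cox7b2 had 0 counts, was at 128, 122 and 118 CPM in brain and 199, 157 and 289 in stroke blood, without overlap (a log2 fold change of -0.77 ± 0.21 (SE), adjusted p = 0.0212). Its call was lost in 3 of the 6 fits without 1 library and with both offsets. The other muscle isoforms were scarce. Cox7a1 was at 1.61, 1.04 and 1.09 CPM in brain and 0.408, 0.427 and 0.898 in stroke blood, a gap without overlap that did not pass the test (a log2 fold change of 1.15 ± 0.58 (SE), adjusted p = 0.16). It was called higher with the offset for exon length (log2 fold change 2.08, adjusted p = 0.0175) and with that for coding length (1.69, adjusted p = 0.0437). Cox7a1 too passed the count filter through its brain libraries only, so these calls are no support beyond its counts. Its widely expressed counterpart Cox7a2 was at 115, 113 and 105 CPM in brain and 208, 148 and 229 in stroke blood and was lower (a log2 fold change of -0.78 ± 0.18 (SE), adjusted p = 0.01), a call lost with both offsets. Cox8b had 8, 0 and 13 counts in the brain libraries and 0 in all 6 blood libraries, too few to be tested. Set against a floor of 3 counts over the group, its level in brain was at least 6.76-fold higher than in stroke blood, with 1 brain library at 0. Cox8a, the widely expressed form, was at 227, 222 and 205 CPM in brain and 388, 293 and 463 in stroke blood (a log2 fold change of -0.77 ± 0.18 (SE), adjusted p = 0.01). Both offsets ended that call, and the one with exon length gave a value above 0 (0.037).

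In ATP synthase 12 of 17 genes were lower, with a median log2 fold change of -0.64. Of 5 genes of the catalytic head and its central stalk, Atp5c1, Atp5d and Atp5e passed the test and Atp5a1 and Atp5b did not, and differences between these genes were not tested. Atp5b (ENSMUSG00000025393, chr10:128083273-128090391, plus strand), the catalytic beta subunit, was at 927, 1107 and 1076 CPM in brain, 923, 954 and 783 in stroke blood and 972, 981 and 1039 in sham blood. The groups overlapped and the difference from stroke blood, 0.26 ± 0.16 on the log2 scale (SE, adjusted p = 0.238), was at -0.013 with the offset for exon length. Atp5a1, the alpha subunit, had a log2 fold change of -0.096 ± 0.17 (SE), adjusted p = 0.692. Atp5c1, the gamma subunit of the rotor stalk, was lower (a log2 fold change of -0.93 ± 0.15 (SE), adjusted p = 0.00204), and was so in every fit run at this threshold. The delta subunit Atp5d was lower too (a log2 fold change of -0.48 ± 0.14 (SE), adjusted p = 0.0324), but not in all of those fits. The epsilon subunit Atp5e (ENSMUSG00000016252, chr2:174461072-174464105, minus strand), the shortest of these, was at 101, 117 and 113 CPM in brain and 251, 174 and 325 in stroke blood, without overlap (a log2 fold change of -1.14 ± 0.21 (SE), adjusted p = 0.00364). Its adjusted p was 0.0551 with the offset for coding length.

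Atp5g1, Atp5g2 and Atp5g3 encode the same mature c subunit, which forms the rotor ring, behind different import sequences. Atp5g2 (ENSMUSG00000062683, chr15:102662864-102672352, minus strand) was the one that passed the main test, at 44.7, 36.7 and 35.7 CPM in brain and 90.2, 65.4 and 112 in stroke blood, without overlap (a log2 fold change of -1.15 ± 0.21 (SE), adjusted p = 0.0037). Windows amounting to 35.8% of its transcript sequence are shared with other genes, so its counts are uncertain. Atp5g1 was at 114, 135 and 122 CPM in brain and 182, 141 and 211 in stroke blood, also without overlap, and missed the threshold (a log2 fold change of -0.49 ± 0.17 (SE), adjusted p = 0.056). It was called lower in 6 of the other fits, among them upper-quartile scaling (log2 fold change -0.64, adjusted p = 0.0213), the offset for GC content and exon length (-0.80, adjusted p = 0.0118) and the fit without stroke blood 2 (-0.66, adjusted p = 0.0167). Atp5g3 was at 103, 199 and 179 CPM in brain and 239, 191 and 248 in stroke blood, with overlap (a log2 fold change of -0.46 ± 0.23 (SE), adjusted p = 0.164). Whether the 3 genes differed from one another in their change was not tested. Atp5s, known as a coupling factor, was at 3.7, 3.53 and 7.06 and 4.23, 1.75 and 4.79 CPM and did not pass (a log2 fold change of 0.45 ± 0.47 (SE), adjusted p = 0.504). Atpif1, the inhibitor of the enzyme, which lies outside the set, was at 67.4, 69.3 and 72.8 CPM in brain and 89, 68.3 and 112 in stroke blood (a log2 fold change of -0.32 ± 0.19 (SE), adjusted p = 0.219).

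Summed over all 80 genes, the level was 14624, 13364 and 15947 CPM in the 3 sham blood libraries, 18362, 14661 and 19477 in stroke blood and 10756, 12163 and 11697 in stroke brain. All brain libraries were below all blood libraries, and stroke blood 2 lay within the sham blood range. The means were 14645 ± 1291, 17499.7 ± 2521 and 11539 ± 717 CPM (SD, n = 3), and brain stood at 0.659 of stroke blood. By complex the ratio of brain to stroke blood was 0.61 for complex I, 0.906 for complex II, 0.669 for complex III, 0.549 for complex IV and 0.73 for ATP synthase. Scaled by library size alone the ratio over all members was 0.754, and that of complex II was 1.03. The sham blood library low in erythroid markers, sham blood 1, lay between the other 2 sham libraries in summed level. Summed microglial markers were lowest in brain 1 and highest in brain 3, while the summed OXPHOS level was lowest in brain 1 and highest in brain 2. The part of microglial or other transcripts in the result was not tested.

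**Figure D5:**
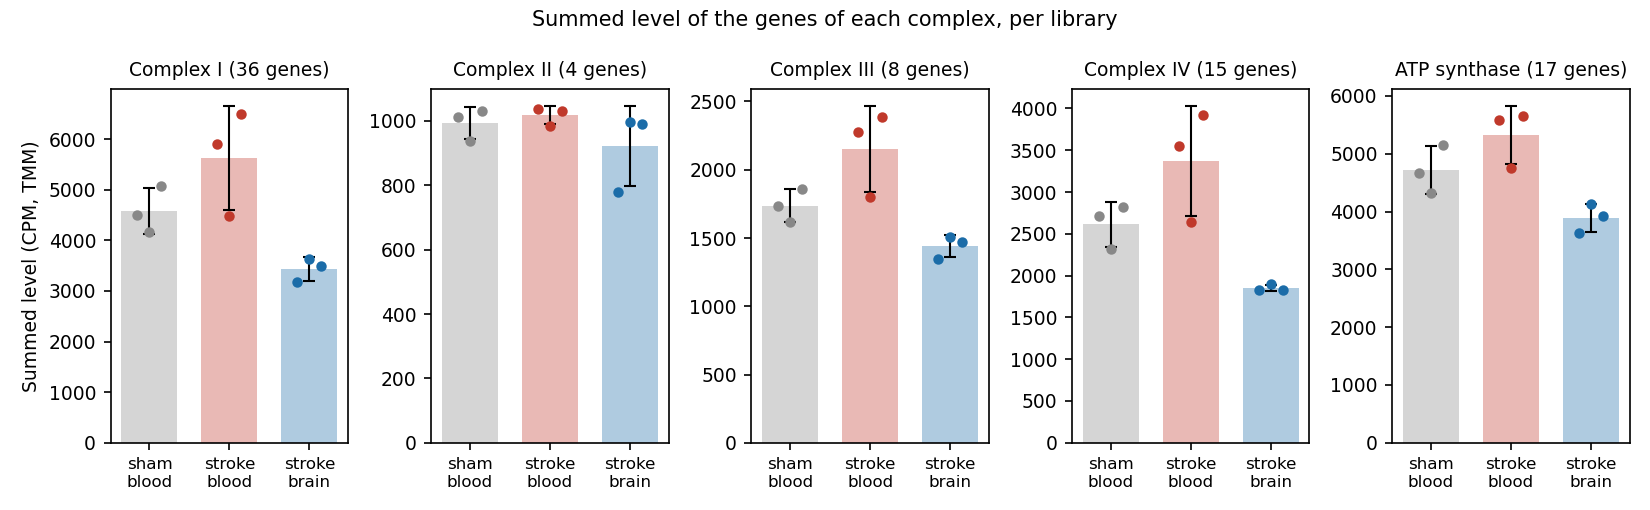
Summed level in CPM of the genes of each complex in each library (points), with the mean (bar) and SD of each group of 3. For complexes I, III, IV and V the 3 brain points lie below all 6 blood points, whereas for complex II brain 2 and 3 lie within the blood range.

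Library order showed how the stroke blood group spread. Stroke blood 2 had the lowest level of its group for 70 of 79 genes, sham blood 3 the highest of its group for 64 and brain 1 the lowest of its group for 53. The same order was not counted over all genes tested, so it may not be particular to the OXPHOS genes.

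The second comparison asked what stroke changed in circulating cells. No OXPHOS gene was called between stroke blood and sham blood, with 0 higher and 0 lower of 77 tested, against 0.0079% higher and 0.0% lower of 12664 genes (edgeR's quasi-likelihood test). DESeq2 also called 0 of these genes, with 114 genes higher and 92 lower over the genome, and at an unadjusted p below 0.05 edgeR had 9 higher and 1 lower of the 77, against 12.5% of all genes tested in either direction. The median log2 fold change was 0.26 over the 77 genes and -0.03 over all genes tested, and 72 of 77 were above 0. The fold change moved with coding length here too, with Spearman's rho of -0.48 over 77 members and -0.18 over 10926 protein-coding genes. Up to 300 nucleotides the median was 0.34 over members and 0.22 over 198 other protein-coding genes. With the offset for coding length the median was 0.15 over members and 0.016 over all genes. The part of coding length in this shift was not tested. Higher levels in every stroke blood library than in every sham blood library were seen for 9 of 77 genes, against 9.77% of all genes tested. The smallest adjusted p belonged to Ndufa6, with stroke blood at 286, 199.6 and 279 and sham blood at 178, 135 and 166 CPM (a log2 fold change of 0.64 ± 0.18 (SE), adjusted p = 0.287). Sdha was the gene furthest below 0, with a log2 fold change of -0.40 ± 0.16 (SE), adjusted p = 0.38. Cox4i1 had a log2 fold change of 0.51 ± 0.17 (SE), adjusted p = 0.328, and Uqcrh had a log2 fold change of 0.47 ± 0.17 (SE), adjusted p = 0.331. In these genes both stroke blood 1 and stroke blood 3 stood further from sham blood than stroke blood 2 did.

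The third comparison set stroke brain against sham blood. It shares its brain libraries with the first comparison and its sham blood libraries with the second, so the 3 are not independent. Of 79 genes tested, 23 were lower and 1, Cox6a2, was higher, against 7.68% lower and 12.1% higher of 13020 genes. Cox6a2 again had enough counts through the brain libraries only. The median log2 fold change was -0.38 over the 79 genes and 0.01 over all genes tested. DEGs were Cox6b2, lower, and Cox6a2, higher, which made 1 gene each way against 3.67% lower and 9.75% higher of all genes. Every brain library was below every sham blood library for 51 of 79 genes, against 19.0% of all genes tested. Spearman's rho with coding length was 0.485 over members and 0.129 over 11406 protein-coding genes. In the 4 classes of coding length, from short to long, 42.9%, 34.2%, 9.09% and 0.0% of members were lower. Of the other protein-coding genes 25.1%, 13.7%, 9.11% and 5.57% were. With the coding-length offset 13 members were lower, against 11.2% of all genes, with medians of -0.255 and -0.108. The part of coding length was not tested.

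By complex, 10 of 36 genes of complex I, 0 of 4 of complex II, 1 of 8 of complex III, 6 of 14 of complex IV and 6 of 17 of ATP synthase were lower than in sham blood. Ndufa6 had a log2 fold change of -0.83 ± 0.19 (SE), adjusted p = 0.0219, against -1.46 ± 0.20 when set against stroke blood. Ndufb3 had a log2 fold change of -0.83 ± 0.15 (SE), adjusted p = 0.00882 and Ndufa1 had a log2 fold change of -0.77 ± 0.14 (SE), adjusted p = 0.00843. The call of Ndufa1 was lost with the offset for GC content and exon length (log2 fold change -0.23, adjusted p = 0.286), that of Ndufb3 with this offset and the replicate block (-0.52, adjusted p = 0.0664), and that of Ndufa6 with the offset for coding length (-0.68, adjusted p = 0.0558) and in 4 of the 6 fits without 1 library, with adjusted p up to 0.0823 there (without brain 3). Cox6b2, at 10.3, 6.94 and 9.96 CPM in sham blood and 5.16, 3.36 and 3.7 in brain, had a log2 fold change of -1.15 ± 0.30 (SE), adjusted p = 0.034, and an adjusted p of 0.0644 with the offset for coding length. Uqcrh had a log2 fold change of -0.64 ± 0.14 (SE), adjusted p = 0.0173, and Atp5e had a log2 fold change of -0.68 ± 0.15 (SE), adjusted p = 0.0201. With the offset for coding length Atp5e was at -0.21 (adjusted p = 0.247) and Uqcrh at -0.34 (adjusted p = 0.0811), and both calls were lost without sham blood 3 and without brain 3, that of Atp5e also without brain 2. The count of lower genes fell to between 3 and 20 of 79 when 1 library was left out. It was 3 without brain 3, near the share of 3.51% of all genes tested in that fit. It was 6 without brain 2 or sham blood 3, against 3.25% and 3.47% of all genes. Without sham blood 1 it was 14, against 5.78%. DEGs numbered 1 to 3 in these fits, where those among all genes were not counted. Cox6b2 kept its call in the fit without brain 1 only, with adjusted p between 0.0261 and 0.104 over the 6 fits.

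Per kilobase of exon, the members spanned a wide range of level. Ndufa1 was highest in both blood groups, at 564 CPM per kilobase in sham blood and 684 in stroke blood, and Cox6a1 was highest in brain, at 393, with Ndufa1 at 331. Cox8a and Cox6b1 were next to them, at 352 and 347 CPM per kilobase in brain. At the low end in brain were Cox8b at 0.885, Ndufb2 at 1.8, Cox7a1 at 2.33, Atp5s at 2.34, Cox6b2 at 3.68 and Cox6a2 at 3.88 CPM per kilobase. The exon length of a gene counts all annotated transcripts, so genes with long alternative transcripts appear lower on this scale.

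Related genes were counted in the same way for the first comparison. Of 6 chain genes that the symbol rule missed, 1, Etfdh, was higher and 0 were lower, against 17.5% higher and 13.1% lower of all genes tested. Etfdh, which feeds electrons from fatty acid oxidation into the chain, was at 46.6, 49.3 and 49 CPM in brain and 33, 36.2 and 22 in stroke blood (a log2 fold change of 0.70 ± 0.22 (SE), adjusted p = 0.039). Cyc1, the cytochrome c1 subunit of complex III, was at 151, 188 and 163 CPM in brain and 148, 138 and 114 in stroke blood, a gap without overlap that did not pass the test (a log2 fold change of 0.36 ± 0.17 (SE), adjusted p = 0.133). Cytochrome c itself, Cycs, was at 121, 156 and 138 and 163, 119.7 and 160.5 CPM (a log2 fold change of -0.06 ± 0.17 (SE), adjusted p = 0.815). Ndufab1, the acyl carrier protein that is also a subunit of complex I, was at 26.9, 32.1 and 30.7 CPM in brain and 39.3, 27.1 and 41 in stroke blood (a log2 fold change of -0.22 ± 0.20 (SE), adjusted p = 0.441). Cycs and Ndufab1 did not pass the test either, and their groups overlapped. Usmg5, a small ATP synthase subunit outside the rule, was lower (a log2 fold change of -0.67 ± 0.19 (SE), adjusted p = 0.0276). The 13 protein genes of the mitochondrial genome summed to 5433, 2821 and 3221 CPM in brain and 18587, 11856 and 21240.4 in stroke blood, a ratio of 0.222, and all 11 that were tested were lower. In sham blood they summed to 9900, 6256 and 7596 CPM. The ratio was 2.18 for stroke blood to sham blood and 0.483 for brain to sham blood. Against sham blood 6 of 11 tested were lower in brain, against 7.68% of all genes tested there.

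Of 44 assembly factors tested 8 were lower and 1 was higher, against 13.1% lower and 17.5% higher of all genes tested, with a median of -0.11. Ttc19, a complex III factor, was the higher one (a log2 fold change of 1.34 ± 0.33 (SE), adjusted p = 0.0139), while Coa4, a complex IV factor, and Uqcc3, a complex III factor, were lower (a log2 fold change of -1.26 ± 0.24 (SE), adjusted p = 0.00436, and a log2 fold change of -1.04 ± 0.25 (SE), adjusted p = 0.0125). Of 77 mitochondrial ribosomal protein genes 22 were lower and 1 was higher, with a median of -0.34, and Mrpl30 had the largest change (a log2 fold change of -1.34 ± 0.18 (SE), adjusted p = 0.000657), followed by Mrpl33 (a log2 fold change of -1.26 ± 0.17 (SE), adjusted p = 0.000639). Of 22 import genes 5 were lower and 1 was higher, with a median of -0.06. The largest change among them was that of Tomm7, a small subunit of the outer membrane translocase (a log2 fold change of -1.07 ± 0.19 (SE), adjusted p = 0.00285).

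Tricarboxylic acid cycle and pyruvate dehydrogenase genes, 17 in all, had 2 higher and 1 lower and a median of 0.13, against 17.5% higher and 13.1% lower of all genes tested. Idh3a, the catalytic subunit of NAD-dependent isocitrate dehydrogenase, was at 72.5, 76.9 and 70.5 CPM in brain and 49.2, 47.4 and 29.4 in stroke blood (a log2 fold change of 0.83 ± 0.22 (SE), adjusted p = 0.0191). Mdh2, mitochondrial malate dehydrogenase, was also higher (a log2 fold change of 0.61 ± 0.14 (SE), adjusted p = 0.0117), and Idh3g, a regulatory subunit of the same enzyme as Idh3a, was lower (a log2 fold change of -0.54 ± 0.15 (SE), adjusted p = 0.0239). Of 12 regulators of OXPHOS genes tested 3 were higher and 0 lower, against the same shares. Myc was at 32.9, 31.2 and 33.1 CPM in brain and 3.72, 5.36 and 3.89 in stroke blood (a log2 fold change of 2.93 ± 0.24 (SE), adjusted p = 5.33e-05). Hif1a, the oxygen-regulated subunit of hypoxia-inducible factor, was at 202, 276 and 228 CPM in brain and 78.1, 102 and 80 in stroke blood (a log2 fold change of 1.48 ± 0.18 (SE), adjusted p = 0.000496). Hif1a in sham blood was at 269, 101 and 104 CPM, where sham blood 1 reached the brain range. Pprc1, a coactivator related to PGC-1, was higher too (a log2 fold change of 1.01 ± 0.30 (SE), adjusted p = 0.0302), whereas Nrf1 and Gabpa did not pass (a log2 fold change of 0.45 ± 0.23 (SE), adjusted p = 0.166, and a log2 fold change of 0.28 ± 0.25 (SE), adjusted p = 0.428). Ppargc1a had too few counts to be tested.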

How the data were processed

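RNA-seq was measured in 9 libraries of sorted monocytes and macrophages (3 sham blood, 3 stroke blood, 3 stroke brain). The authors made cDNA with the SMART-Seq HT kit, prepared Nextera XT libraries, sequenced paired 75-base reads on a NextSeq 500, checked them with FastQC, ran HISAT2 against mouse GRCm38 and summarized reads by gene in HTSeq. Versions, annotation release and strand setting were not given in the sources used here. The deposited values are raw counts per Ensembl gene, and per the file headers each of 53801 genes has its position and length. Gene symbols, coding lengths and exon overlaps were taken from GENCODE M21 (GRCm38), and 70 of the 80 members had coordinates identical to those in the files.

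From these counts the 3 pairwise comparisons were computed with edgeR 4.0.16 (R 4.3.3): TMM normalization, filterByExpr, quasi-likelihood F-test, two-sided, Benjamini-Hochberg adjustment over all genes tested. Levels are TMM-scaled CPM. Replicate numbers gave correlations of deviations between -0.07 and 0.07, so they were not treated as pairs. Nothing states that blood libraries of a group were processed on separate days, and p-values measure the spread between libraries. The members, gene lists, motifs and tests were chosen with earlier results of these data known. Named members are the 2 highest and 2 lowest fold changes per complex against stroke blood, every DEG, isoform pairs, the 4 complex II genes and the extremes of level per kilobase. Named related genes are up to 3 per list with the largest change among those called, and Cyc1, Cycs, Usmg5, Atpif1, Nrf1, Gabpa, Lyz2, Cd68, Atp5a1, Atp5c1, Atp5d and the genes overlapping members were named after their values were seen. Alternatives were RLE, upper-quartile and library-size scaling, DESeq2 1.42.0, other filters, 1 fit of all 9 libraries, a replicate block, offsets for GC content and length (mgcv 1.9.3), a threshold of 0.01, members without exon overlap and leaving out each library. The fitting was tested on simulated counts.

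Exons of 28 of the 80 members overlap those of another gene, 25 of them on the opposite strand, and 16 share over 10% of their 75-base windows with other transcripts. A count of 3 in a library is 0.133 to 0.162 CPM. The single values of 1 member are not reported here, and it is counted in the totals.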

Additional observations from a re-analysis of the deposited data

How the results depend on the processing

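Between stroke brain and stroke blood, the count of lower members (50) ran from 28 to 59 with 1 library left out. It was 25 at an adjusted p below 0.01, where the share of all genes was not counted. Among members without exon overlap 31 were lower. That set is smaller, as 28 of the 80 members have an overlap, so its counts are not a fall from those of the full set. Of all genes tested, 7.74% to 13.4% were lower with 1 library left out. With library-size scaling 35 members were lower, against 9.76% of all genes, and with upper-quartile scaling 61, against 17.5%. With the replicate block and the exon-length offset 34 were lower, against 14.2% of all genes. The count of higher members (1) was 2 with library-size scaling, 0 with a mean of at least 50 counts, 3 with the offset for GC content and exon length, 2 with the offset for GC content and coding length (chosen after seeing the data) and 0 among members without exon overlap. DEGs (15) ran from 8 to 28 with 1 library left out, and were 23 with upper-quartile scaling, 4 with library-size scaling, 6 with the coding-length offset and 8 without exon overlap. The DEGs among all genes were not counted in these fits, so the change in number may not be particular to the members. Library-size scaling moved the median log2 fold change of all genes from 0.06 to 0.22, upper-quartile scaling to -0.09, and the coding-length offset to -0.13. The median of the members relative to that of all genes was -0.72, -0.71, -0.72 and -0.28 in these 4 fits.

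Against sham blood, lower members (23) ran from 3 to 20 with 1 library left out, and were 30 with upper-quartile scaling and 15 with library-size scaling. They were 15 with the replicate block, 14 with the block and the exon-length offset and 13 with the coding-length offset. At an adjusted p below 0.01 they were 3, and the share of all genes there was not counted. In the smaller set without exon overlap 14 were lower. Of all genes tested, 3.25% to 8.51% were lower with 1 library left out. The share was 9.48% with upper-quartile scaling, 5.51% with library-size scaling and 5.97% with the replicate block. It was 10.0% with the block and the exon-length offset and 11.2% with the coding-length offset. Higher members (1) were 0 with a mean of at least 50 counts and without exon overlap. DEGs (2) ran from 1 to 3 with 1 library left out, and were 1 with library-size scaling, with a mean of at least 50 counts, with the coding-length offset, at an adjusted p below 0.01 and without exon overlap. Again the DEGs among all genes were not counted in these fits. Between stroke and sham blood every setting gave 0 members.

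Direction turned in the first comparison for Atp5b (-0.013 with the exon-length offset, with and without the replicate block, and -0.080 with the coding-length offset), Cox6a1 (0.13, and 0.099 with the block), Cox8a (0.037, and 0.034 with the block) and Ndufa1 (0.11, and 0.10 with the block) with the exon-length offset, Ndufa9 (0.10 with library-size scaling), Ndufs1 (-0.024 with the coding-length offset) and Sdhc (-0.46 to 0.0090 with 1 library left out, the highest without brain 1). Of 593 alternative values of named members there, 539 kept direction and side of the threshold, 25 lost the call, 17 gained one and 12 turned. In the 254 against sham blood, 188 kept it and 66 lost it. The cause of these changes was not tested.

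Same-numbered libraries did not deviate together, so the replicate block carries no known pairing. With it 41 members were lower than in stroke blood, against 11.1% of all genes tested. Groups of 3 limit what can be called, and counting error limits Cox6a2, Cox7a1 and Cox8b.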
